A study of Homo sapiens with 30 samples.

Results

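The report follows 10 target genes of the transcription factor p53 in HepG2, an established human liver cancer cell line that keeps normal p53. The genes are CDKN1A, MDM2, BAX, BBC3, FAS, GDF15, TP53I3, RRM2B, SESN1 and ZMAT3. They were taken by name, each matched 1 Ensembl row of a table of 60675 gene rows, and all 10 passed the filter on low counts that left 16083 tested genes. The cells were exposed for 24 h to ethanol extracts of tonifying herbal formulas at a high (500 µg/mL), medium (100 µg/mL) or low (20 µg/mL) dose. There were 3 libraries at each dose of Palmul-tang and of Sibjeondaebo-tang, 2 at each dose of Samul-tang and 1 at each dose of Sagunja-tang, against 3 libraries of the solvent vehicle DMSO (0.1% in the sample labels and 2% in the series design text). The 13 groups gave 30 RNA sequencing libraries, all of the same unmodified cell line, and nothing says that the replicates were separate cultures. p-values therefore measure the spread between these libraries, which may be technical.

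p53 is held at low levels by MDM2, which marks it for destruction, and by MDM4, which blocks its activity. DNA damage, ribosome stress and other insults release it, and it then switches on genes that stop the cell cycle (CDKN1A, which encodes the inhibitor p21), promote death (BAX, BBC3, FAS), supply or repair DNA (RRM2B), restrain growth signalling (SESN1) and, through MDM2, end its own activity. Several targets have a further input. GDF15 encodes a secreted stress hormone made by injured liver and is also switched on by ATF4, the transcription factor of the integrated stress response.

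The binding sites are shown first, because the genes share p53 as a regulator and the sequence can be set beside the expression. RefSeq windows (GRCh38.p14) that run from 250 bases before to 50 after an annotated start were at hand for 9 of the 10 genes, 17 windows in all. They were searched for the 20-base p53 response element, which is made of a pair of 10-base repeats and reads the same on both strands. Up to 3 mismatches were allowed, never at the invariant C and G of a repeat. Capitals mark the match, and every sequence reads 5′ to 3′ along the gene.
GDF15, chr19:18385908-18386207, plus strand: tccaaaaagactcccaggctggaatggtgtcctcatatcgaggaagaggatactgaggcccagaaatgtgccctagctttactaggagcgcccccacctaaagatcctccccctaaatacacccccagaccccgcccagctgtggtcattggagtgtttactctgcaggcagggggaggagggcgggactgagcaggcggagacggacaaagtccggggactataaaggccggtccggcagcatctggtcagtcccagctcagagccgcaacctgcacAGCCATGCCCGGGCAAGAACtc
MDM2, chr12:68808767-68809066, plus strand, the internal start: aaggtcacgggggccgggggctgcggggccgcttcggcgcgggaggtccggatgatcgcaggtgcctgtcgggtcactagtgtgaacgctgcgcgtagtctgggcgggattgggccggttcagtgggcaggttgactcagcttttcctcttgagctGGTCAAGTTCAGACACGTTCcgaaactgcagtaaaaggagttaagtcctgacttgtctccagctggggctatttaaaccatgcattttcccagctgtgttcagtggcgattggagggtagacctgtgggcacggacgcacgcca
FAS, chr10:88991181-88991480, plus strand, the most downstream of its starts: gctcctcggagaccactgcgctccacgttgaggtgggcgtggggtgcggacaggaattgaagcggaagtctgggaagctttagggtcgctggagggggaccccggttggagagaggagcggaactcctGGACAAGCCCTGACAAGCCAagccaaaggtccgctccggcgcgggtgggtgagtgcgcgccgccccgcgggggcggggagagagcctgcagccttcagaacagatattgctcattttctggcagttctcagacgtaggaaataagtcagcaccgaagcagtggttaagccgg
SESN1, chr6:109008939-109009238, minus strand, 1 of 3 starts: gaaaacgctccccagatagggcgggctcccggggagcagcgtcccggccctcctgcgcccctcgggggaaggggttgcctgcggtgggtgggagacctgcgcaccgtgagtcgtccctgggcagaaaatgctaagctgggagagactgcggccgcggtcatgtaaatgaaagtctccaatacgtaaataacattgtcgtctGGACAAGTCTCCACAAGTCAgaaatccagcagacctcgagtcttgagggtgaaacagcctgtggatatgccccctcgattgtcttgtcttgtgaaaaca
CDKN1A, chr6:36678464-36678763, plus strand, no match: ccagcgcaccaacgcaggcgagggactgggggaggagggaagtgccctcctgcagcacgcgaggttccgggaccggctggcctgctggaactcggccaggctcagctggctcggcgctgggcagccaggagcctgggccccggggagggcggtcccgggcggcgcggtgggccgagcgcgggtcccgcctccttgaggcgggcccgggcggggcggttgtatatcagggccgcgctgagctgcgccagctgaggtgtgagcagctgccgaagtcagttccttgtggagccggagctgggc
A match was present in 5 windows of 4 genes (GDF15, FAS, SESN1 and, in overlapping windows that hold the same element, MDM2), against 1.116% of all 35116 windows. The genes were chosen as p53 targets, so this contrast follows from the choice and says nothing about the extracts. The match lay 28 bases after the start in GDF15, and began 94 bases before it in the MDM2 window shown, 122 before in FAS and 49 before in SESN1. The ATF4 element TGATGNAAN, read on both strands, was in 0 of the 17 windows and in 3.611% of all windows. A match is a description and not a measured site, and windows without one say nothing about binding elsewhere in the gene.

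Each library held 21570416 to 37707232 expected counts. Levels below are CPM (counts per library scaled to a common total) adjusted by TMM factors, a correction for library composition. Differences are log2 fold changes with their standard error from edgeR's quasi-likelihood test, and a gene is called where the p-value adjusted over all 16083 genes (Benjamini-Hochberg) is under 0.05. Libraries said not to overlap, or to lie outside the vehicle range, are a description. The share of all tested genes doing the same is given only for single Sagunja-tang libraries. In these, 33.2 to 35.4% of all tested genes lay above the vehicle range and 34.2 to 35.9% below it. The 10 hepatocyte markers, albumin and alpha-fetoprotein among them, summed to 56372 to 68300 CPM and none was at 0 in any group. Markers of fibroblasts summed to 3.97 to 7.63 CPM in 29 libraries, of which PDGFRB carried 3.83 to 7.35 CPM. They summed to 30.04 CPM in Sibjeondaebo-tang low replicate 3. In that library COL1A1 stood at 8.29, COL1A2 at 6.96, COL3A1 at 4.31 and DCN at 1.90 CPM. COL1A2, COL3A1 and DCN did not exceed 0.093 CPM in any other library. The leukocyte and endothelial list summed to 50.6 to 84.7 CPM, of which CD68 carried 48.7 to 82.0 CPM. The leukocyte genes PTPRC and CD3E did not exceed 0.0298 and 0.0364 CPM. Mitochondrial genes took 11.2 to 19.7% of the counts in extract libraries and 12.4 to 14.5% in vehicle libraries. The part of these levels in the results below was not tested. Every sample title, vehicle included, reads BatchE. Libraries also carry label prefixes, whose meaning is not stated: 15 for Palmul-tang and Sibjeondaebo-tang, 14 for Samul-tang and Sagunja-tang, and E1 for vehicle. An effect of extract and an effect of prefix therefore cannot be told apart wherever vehicle is the reference, whereas high against low dose and Sibjeondaebo-tang against Palmul-tang lie within a prefix. Among replicates, Samul-tang medium replicates 2 and 3 differed most, by 5.37 times counting noise. Calls resting on them are therefore given with and without replicate 2.

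GDF15 was the member that moved with dose. It was higher at the high than at the low dose of each of the 3 replicated formulas, while none of the other 9 members was called in any of these comparisons. In Palmul-tang it stood at 230.3, 224 and 226 CPM in the high-dose libraries, against 147, 142 and 143 CPM in the low-dose libraries. This is a log2 fold change of 0.65 ± 0.06, or 1.57-fold (adjusted p = 8.00e-10), and the libraries did not overlap. Sibjeondaebo-tang gave 207, 193 and 183 CPM at the high dose, against 144, 146 and 131 CPM at the low dose, a log2 fold change of 0.47 ± 0.06 (adjusted p = 1.98e-07). Samul-tang gave 184 and 182 CPM at the high dose, against 151 and 144 CPM at the low dose, a log2 fold change of 0.31 ± 0.07 (adjusted p = 0.0112). The Samul-tang call rests on all 4 libraries, since leaving out any of them gave an adjusted p of 0.0528 to 0.218. Over the same doses 0 hepatocyte markers were called higher and 5 lower in Palmul-tang, and 1 higher and 5 lower in Sibjeondaebo-tang. Samul-tang had 0 higher and 1 lower. Leaving out single libraries gave 1 to 4 such calls in Palmul-tang and 3 to 6 in Sibjeondaebo-tang. The part of these markers in the GDF15 result was not tested. With 1 member of 10 higher and 0 lower in each formula, the shares of all tested genes were 3.75% higher and 3.03% lower in Palmul-tang, 10.4% higher and 9.44% lower in Sibjeondaebo-tang, and 0.709% higher and 0.715% lower in Samul-tang.

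Along the dose series, GDF15 began at the vehicle level and climbed. Vehicle libraries held 147, 159 and 139 CPM. The low doses of the replicated formulas averaged 144, 140 and 148 CPM in Palmul-tang, Sibjeondaebo-tang and Samul-tang, inside the vehicle spread. The medium doses averaged 175 ± 11.7 CPM in Palmul-tang and 158 ± 9.99 CPM in Sibjeondaebo-tang (SD, n = 3 each), and 169 ± 2.82 CPM in Samul-tang (SD, n = 2). Against vehicle, the medium doses of Palmul-tang (0.24 ± 0.06, adjusted p = 0.00279) and Samul-tang (0.18 ± 0.06, adjusted p = 0.0341) were called and that of Sibjeondaebo-tang was not (0.09 ± 0.06, adjusted p = 0.248). The Samul-tang medium call was lost without vehicle replicate 1 or 3 or Samul-tang medium replicate 2, with adjusted p of 0.0779 to 0.231, and in the fit of the compared groups alone (0.187). With a correction for the GC content and length of each gene (the GC and length offset), Sibjeondaebo-tang medium was called (0.18, adjusted p = 0.00598). All 3 high doses were called against vehicle, with log2 fold changes of 0.61 ± 0.06 in Palmul-tang (adjusted p = 9.78e-10), 0.39 ± 0.06 in Sibjeondaebo-tang (adjusted p = 2.77e-06) and 0.30 ± 0.06 in Samul-tang (adjusted p = 0.000792). CD68 ran from 69.0 to 80.6 CPM in Palmul-tang high, 65.8 to 80.9 CPM in Sibjeondaebo-tang high and 62.2 to 66.2 CPM in Samul-tang high, against 50.3 to 55.4 CPM in vehicle, and its part in these results was not tested.

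**Figure D1:**
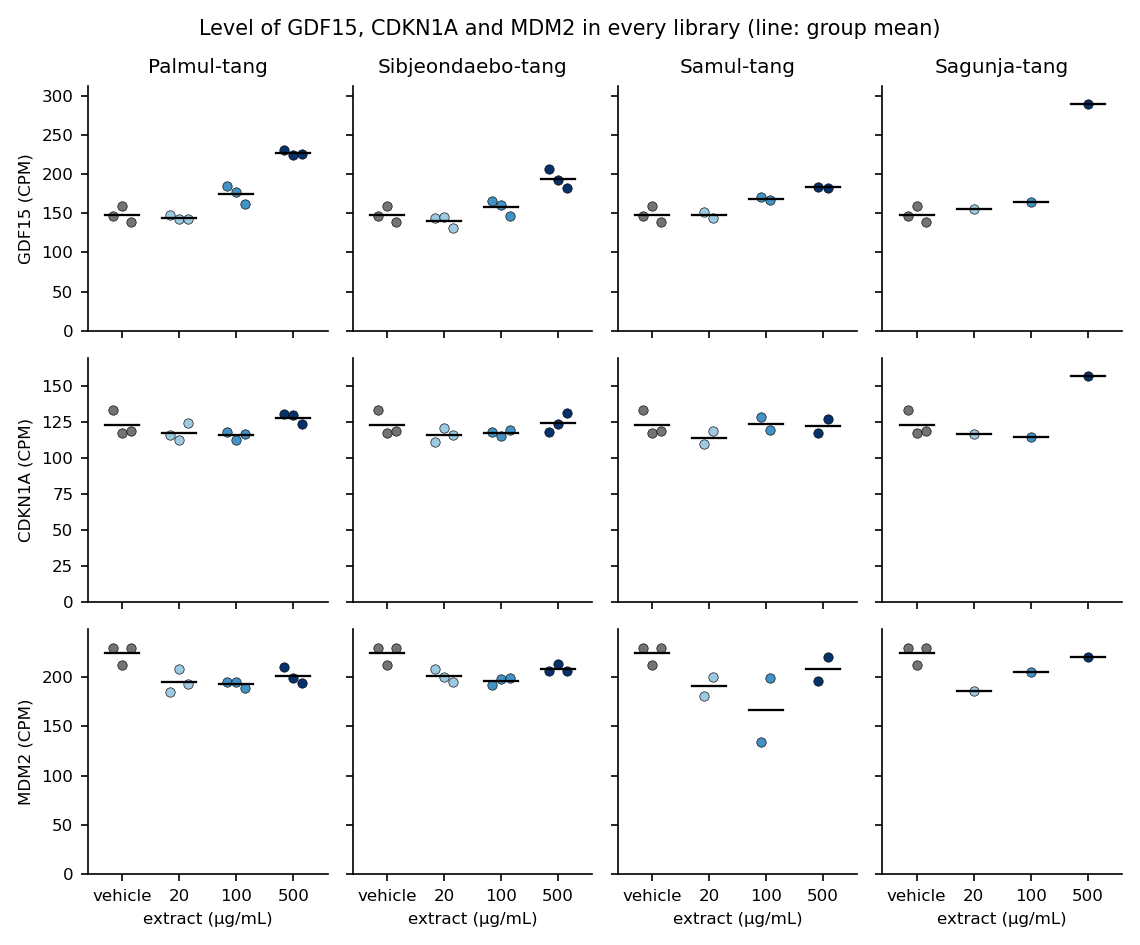
Level of GDF15, CDKN1A and MDM2 (CPM, vertical axes from 0) in every library against the dose of each formula, with the same 3 vehicle libraries at the left of each panel and a line at each group mean. GDF15 climbs with dose to 227, 194, 183 and 289.5 CPM at 500 µg/mL, while CDKN1A leaves the vehicle range upward in 1 library, Sagunja-tang high at 157 CPM.

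At the high dose GDF15 was lower in Sibjeondaebo-tang than in Palmul-tang, with a log2 fold change of -0.22 ± 0.06 (adjusted p = 0.0104) and no overlap of the libraries given above. The call was lost without Sibjeondaebo-tang high replicate 3 (adjusted p = 0.0676). At the medium dose the difference was -0.15 ± 0.06 (adjusted p = 0.694), and at the low dose -0.04 ± 0.06 (adjusted p = 1). The difference in high-against-low change between formulas was also tested and was not called for GDF15: it was -0.18 (95% interval -0.34 to -0.02, adjusted p = 0.362) for Sibjeondaebo-tang minus Palmul-tang and -0.34 (95% interval -0.52 to -0.16, adjusted p = 0.905) for Samul-tang minus Palmul-tang. The unadjusted p of the Samul-tang difference was 0.000524. Of all tested genes, 2 (0.0124%) were called in that test.

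Sagunja-tang had 1 library per dose, so its differences have no replicate check. Its GDF15 level was 156 CPM at 20, 165 CPM at 100 and 289.5 CPM at 500 µg/mL, and the last is the highest of all 30 libraries. On the log2 scale the high-dose library lay 0.97 above the vehicle mean. CDKN1A stood at 157 CPM in the same library, the highest CDKN1A value of the series, against a vehicle range of 118 to 134 CPM. Its medium and low-dose values of 115 and 117 CPM lay just below that range. At the high dose 5 of the 10 members lay above the vehicle range (CDKN1A, BAX, FAS, GDF15 and RRM2B) and 3 below it (TP53I3, SESN1 and ZMAT3), with a median log2 ratio of 0.03. Of all tested genes in this library, 35.4% lay above and 35.9% below the vehicle range. At the medium dose 3 members lay above and 5 below (35.0% and 34.3% of all genes), and at the low dose 1 above and 4 below (33.2% and 34.2%).

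CDKN1A, the classical readout of p53 activity, was called in none of the 15 direct comparisons by edgeR or by DESeq2, and 1 of them, Palmul-tang high against low, had an unadjusted p under 0.05. It read 131, 130.0 and 124 CPM in Palmul-tang high and 119, 124 and 132 CPM in Sibjeondaebo-tang high. Samul-tang high had 118 and 127 CPM, and the vehicle libraries had 134, 118 and 119 CPM. These groups overlap in every pairing with vehicle. The log2 fold change from vehicle at the high dose was 0.06 (95% interval -0.05 to 0.17) in Palmul-tang, 0.02 (-0.09 to 0.13) in Sibjeondaebo-tang and -0.01 (-0.13 to 0.11) in Samul-tang. In this fit, which leaves out Sagunja-tang, the upper bounds are thus increases of at most 0.17 on the log2 scale. High against low, the change was 0.12 ± 0.05 in Palmul-tang (adjusted p = 0.2), 0.10 ± 0.05 in Sibjeondaebo-tang (adjusted p = 0.184) and 0.10 ± 0.07 in Samul-tang (adjusted p = 0.701). With an offset for GC content and gene length, Sibjeondaebo-tang high was called against vehicle (0.14, adjusted p = 0.039) and against low (0.15, adjusted p = 0.0298). CDKN1A overlaps the antisense RNA DINOL, and whether counting used strand is not given.

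MDM2, which is both target and inhibitor of p53, lay below vehicle. Of the 27 extract libraries, 24 lay below the range of the vehicle libraries and 0 above it. The 3 vehicle libraries held 230.1, 212 and 230.0 CPM. In single Sagunja-tang libraries, 34.2 to 35.9% of all genes lay below the vehicle range. Group means of the replicated formulas ran from 166 CPM in Samul-tang medium to 209 CPM in Sibjeondaebo-tang high, against 224 ± 10.3 CPM in vehicle (SD, n = 3). The 9 log2 fold changes from vehicle were all negative, -0.10 to -0.43, but the call was made in 1 of them, Samul-tang medium (-0.43 ± 0.10, adjusted p = 0.00388). That call was lost without Samul-tang medium replicate 2 (-0.17, adjusted p = 0.18), whose MDM2 level of 134 CPM was the lowest of the series beside 199 CPM in replicate 3. Fits of the compared groups alone called MDM2 lower in 6 further comparisons: Palmul-tang at all 3 doses (adjusted p = 0.0221 high, 0.00282 medium and 0.0074 low), Sibjeondaebo-tang medium (0.00217) and low (0.00525), and Samul-tang low (0.00596). In the same fit the Samul-tang medium call was lost (adjusted p = 0.135). MDM2 did not follow dose, as high against low gave 0.04 ± 0.09 in Palmul-tang, 0.05 ± 0.09 in Sibjeondaebo-tang and 0.13 ± 0.11 in Samul-tang. In Sagunja-tang the 3 values were 186, 205 and 221 CPM from low to high dose. All 30 MDM2 values were fractions rather than whole numbers, and MDM2 overlaps a pseudogene on the same strand with which RSEM may divide its reads by estimate.

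By the measure of likeness used, the Pearson correlation of mean log2 CPM over the 13 groups, the tested genes with patterns most like that of CDKN1A were FST (0.94), EDC3 (0.93) and TMEM62 (0.92). For MDM2 they were CBL (0.98), KPNA6 (0.94) and LNPEP (0.93). These are the highest of 10416 genes compared, the 13 points share libraries and scaling, and the values are a description. The lowest MDM2 mean, 166 CPM in Samul-tang medium, comes from 134 CPM in its replicate 2 and 199 CPM in replicate 3. The correlations were not computed without that replicate 2. Among the members themselves, CDKN1A and GDF15 were most alike with r = 0.88 over the 13 group means. The single Sagunja-tang high library is 1 of these points and the highest for both genes, at 157 and 289.5 CPM. No correlation was computed without it, those of FST, EDC3 and TMEM62 included.

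**Figure D2:**
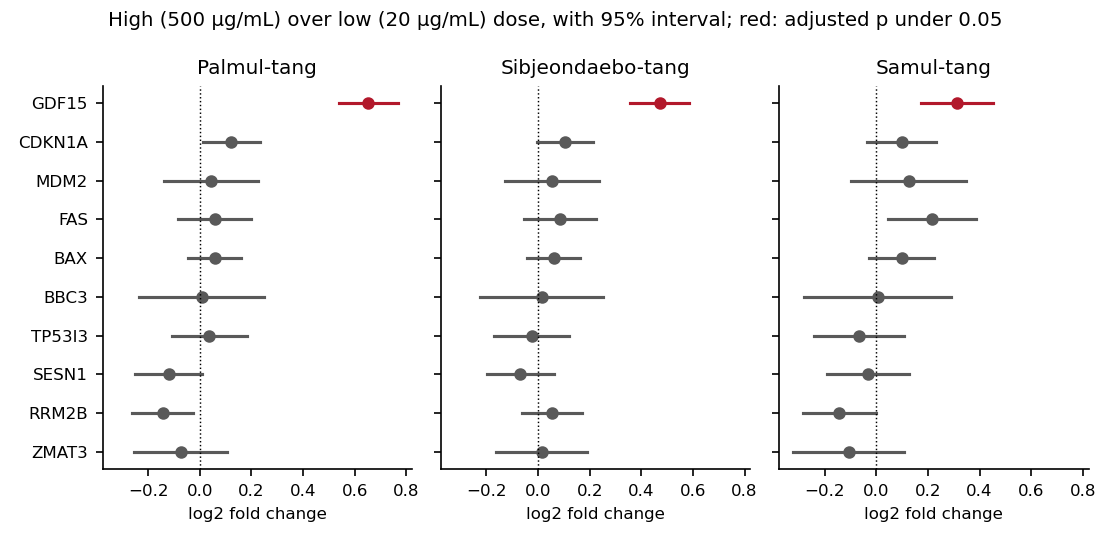
Log2 fold change of the 10 members at 500 over 20 µg/mL in each replicated formula, with 95% intervals as bars; members called at an adjusted p under 0.05 are red. GDF15 is the red point in each panel (0.65, 0.47 and 0.31), and the other members lie between -0.14 and 0.22.

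Among the death genes, FAS was higher than in vehicle, and BAX and BBC3 were not. FAS encodes the receptor through which neighbouring cells can trigger apoptosis. It read 21.7, 24.0 and 21.1 CPM in Palmul-tang high, 20.2, 23.0 and 26.6 CPM in Sibjeondaebo-tang high and 22.6 and 23.1 CPM in Samul-tang high, against 19.0, 18.3 and 17.6 CPM in vehicle. No high-dose library overlapped vehicle, and 26 of the 27 extract libraries lay above the vehicle range. In single Sagunja-tang libraries, 33.2 to 35.4% of all genes lay above it. The call was made in 7 of the 9 comparisons with vehicle, with log2 fold changes of 0.29 ± 0.07 in Palmul-tang high (adjusted p = 0.00208), 0.35 ± 0.07 in Sibjeondaebo-tang high (adjusted p = 0.000223) and 0.32 ± 0.08 in Samul-tang high (adjusted p = 0.00346). The exceptions were Palmul-tang medium (0.16, adjusted p = 0.0931) and Samul-tang low (0.10, adjusted p = 0.444). FAS did not pass between high and low dose, with 0.06 ± 0.07 in Palmul-tang, 0.09 ± 0.07 in Sibjeondaebo-tang and 0.22 ± 0.08 in Samul-tang (adjusted p = 0.306). The call in Samul-tang medium (0.28) was lost without its replicate 2 (adjusted p = 0.0982) and in the fit of the compared groups alone (0.0881), and that in Palmul-tang low (0.23) without vehicle replicate 3 (0.065) or Palmul-tang low replicate 3 (0.0606). FAS shares exonic sequence with ACTA2 on the opposite strand, and 17 of its 30 values were not whole.

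BAX, which opens the outer mitochondrial membrane, stayed between 81.2 and 106 CPM in all libraries. Its only call was lower in Sibjeondaebo-tang medium, at 91.0, 81.2 and 84.3 CPM, against 95.2, 94.7 and 91.6 CPM in vehicle (-0.13 ± 0.05, adjusted p = 0.0445). This call was lost with DESeq2 (adjusted p = 0.0543), with median-ratio factors (0.0597), with no filter (0.125) and with the GC and length offset (-0.05, adjusted p = 0.509). It was also lost without any of the 3 vehicle libraries (0.0506 to 0.132) and without Sibjeondaebo-tang medium replicate 2 (0.232) or 3 (0.127). BBC3, which encodes the BCL2 antagonist PUMA, was the lowest member at 4.30 to 6.18 CPM, resting on 103 to 220 counts per library. It was called in none of the 15 direct comparisons by edgeR or DESeq2, with 0 at an unadjusted p under 0.05, and its 95% intervals against vehicle at the high dose reached from -0.16 to 0.43.

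TP53I3 and ZMAT3 were lower than in vehicle. TP53I3 encodes a quinone oxidoreductase linked to oxidative stress in p53-driven death. It held 26.5, 23.6 and 25.7 CPM in Palmul-tang high and 25.1, 25.4 and 22.8 CPM in Sibjeondaebo-tang high, against 30.7, 30.2 and 29.5 CPM in vehicle. No library of either group reached the vehicle range, and the share of all genes doing so is not given. The call was made at all 3 doses of both formulas, with log2 fold changes from -0.23 ± 0.07 (Palmul-tang medium, adjusted p = 0.0165) to -0.38 ± 0.07 (Sibjeondaebo-tang medium, adjusted p = 0.000156). It was not made in Samul-tang, where high gave -0.18 ± 0.08 (adjusted p = 0.0974, and 0.0416 in the fit of the compared groups alone) and medium 0.03 ± 0.08. TP53I3 shares exonic sequence with FAM228B on the opposite strand, so reads of the pair could be mixed if counting ignored strand. Without Palmul-tang high replicate 2 the Palmul-tang high call was lost (adjusted p = 0.0559). The Palmul-tang medium call was lost without vehicle replicate 1 (0.0575), vehicle replicate 2 (0.0526) or Palmul-tang medium replicate 2 (0.106). There was no dose trend, since high against low was 0.04 ± 0.07 in Palmul-tang, -0.02 ± 0.07 in Sibjeondaebo-tang and -0.07 ± 0.08 in Samul-tang.

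ZMAT3 encodes an RNA-binding protein through which p53 alters splicing. Its levels were 42.1, 40.7 and 45.0 CPM in Palmul-tang high, 45.2, 48.8 and 49.7 CPM in Sibjeondaebo-tang high and 42.5 and 47.4 CPM in Samul-tang high, against 54.4, 49.2 and 58.1 CPM in vehicle. Of the 27 extract libraries 26 lay below the vehicle range. In single Sagunja-tang libraries, 34.2 to 35.9% of all genes did so. The call was made in 5 of the 9 comparisons: Palmul-tang high (-0.34 ± 0.09, adjusted p = 0.00371), medium (-0.27) and low (-0.26), Sibjeondaebo-tang medium (-0.24 ± 0.09, adjusted p = 0.0336) and Samul-tang medium (-0.43 ± 0.10, adjusted p = 0.00248). The Samul-tang medium call was lost without its replicate 2 (-0.19, adjusted p = 0.21), which held 33.0 CPM beside 47.0 CPM in replicate 3, and in the fit of the compared groups alone (adjusted p = 0.116). Samul-tang high was not called (-0.26, adjusted p = 0.0577), but was with DESeq2 (0.0433), no filter (0.00812), the replicate block (0.00956), the GC and length offset (0.025), the compared groups alone (0.0135) and without vehicle replicate 2 (0.0302). Sibjeondaebo-tang high (-0.17) was called with no filter (0.0242), the compared groups alone (0.0215) and without vehicle replicate 2 (0.0404), and Sibjeondaebo-tang low (-0.18) with the offset (0.0291) and the compared groups alone (0.014). The Palmul-tang high call held without any 1 library, with adjusted p up to 0.0255. The Palmul-tang medium and low and the Sibjeondaebo-tang medium calls were each lost without vehicle replicate 1 or 3 or without 1 or more of the extract libraries, with adjusted p up to 0.146. No change between high and low dose was called, with -0.07 ± 0.09, 0.01 ± 0.09 and -0.11 ± 0.10 in Palmul-tang, Sibjeondaebo-tang and Samul-tang.

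The arrest and repair members moved little. SESN1, a stress-induced inhibitor of the growth kinase mTORC1, ran from 36.5 to 47.7 CPM. It was called lower in Palmul-tang high, at 36.8, 37.1 and 42.1 CPM, against 47.7, 41.2 and 41.2 CPM in vehicle (-0.17 ± 0.06, adjusted p = 0.044). The groups overlapped, and the call was lost with DESeq2 (0.0612), median-ratio factors (0.0544), no filter (0.0765), the compared groups alone (0.0579), and without vehicle replicate 1 (-0.09, adjusted p = 0.328) or Palmul-tang high replicate 1 (0.173) or 2 (0.174). With the GC and length offset, Palmul-tang medium (-0.17, adjusted p = 0.0335) and Sibjeondaebo-tang medium (-0.16, adjusted p = 0.0394) were called. SESN1 overlaps an antisense gene, and 29 of its 30 values were not whole. RRM2B, a subunit of ribonucleotide reductase that supplies building blocks for DNA repair, ran from 34.8 to 45.1 CPM and was called in none of the 9 comparisons with vehicle by edgeR or DESeq2 (0 at an unadjusted p under 0.05). It was higher in Sibjeondaebo-tang high, at 39.7, 40.7 and 43.8 CPM, than in Palmul-tang high, at 36.5, 35.3 and 36.4 CPM (0.20 ± 0.06, adjusted p = 0.0303). That call was lost without any 1 of the 6 libraries (adjusted p = 0.0529 to 0.285), with no filter on low counts (0.126), with median-ratio factors (0.0534) and in the fit of the compared groups alone (0.0642). High against low in Palmul-tang, RRM2B was called lower without Palmul-tang low replicate 1 (-0.20, adjusted p = 0.0423).

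**Figure D3:**
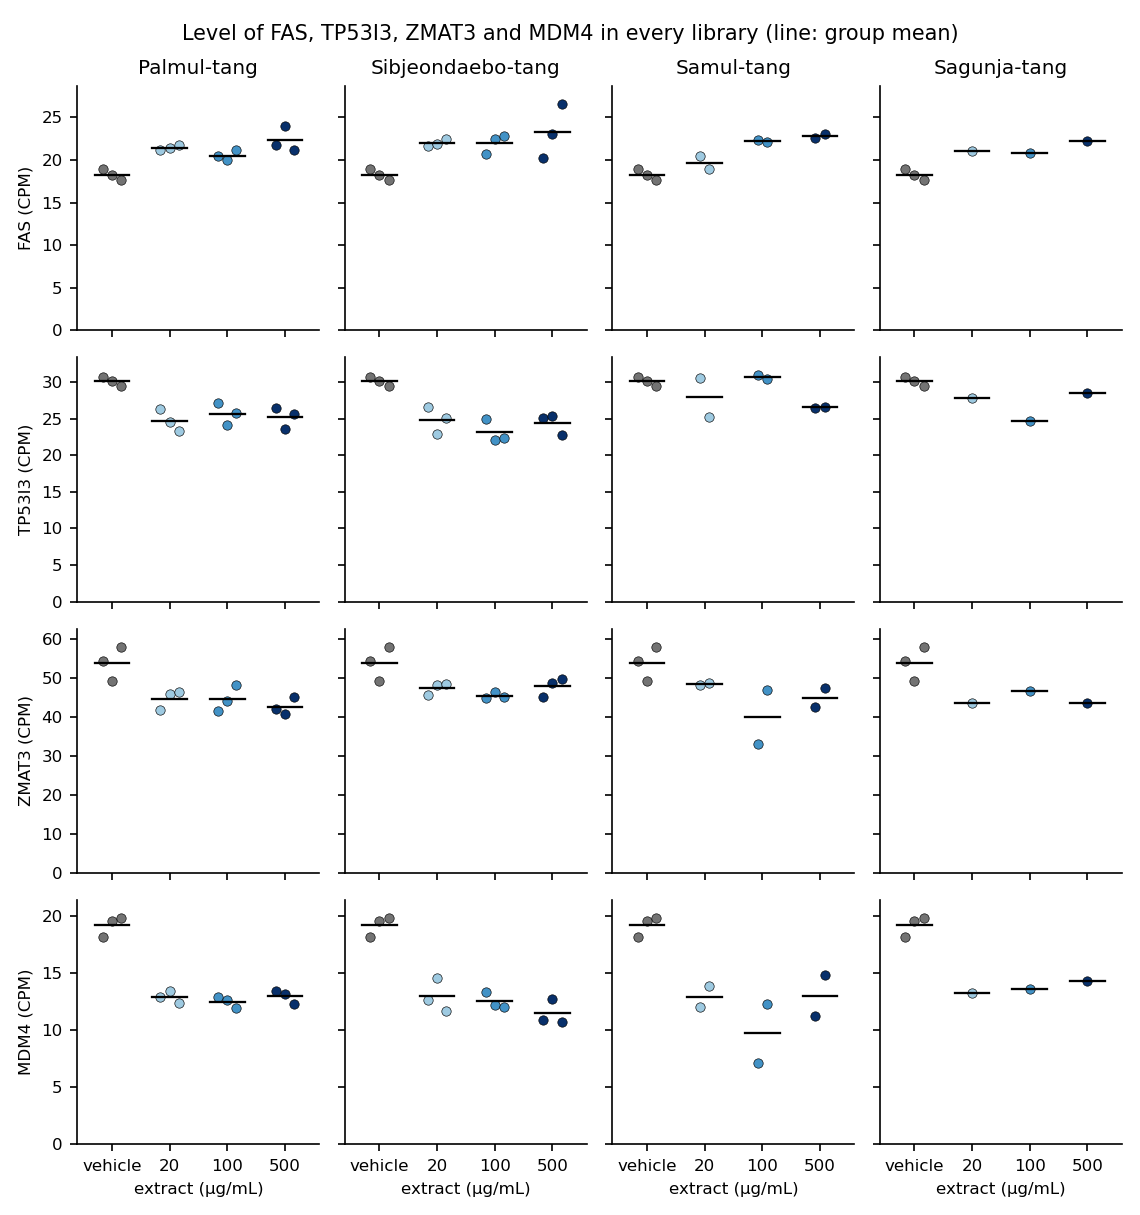
Level of FAS, TP53I3, ZMAT3 and MDM4 (CPM, vertical axes from 0) in every library against the dose of each formula, with the same 3 vehicle libraries at the left of each panel and a line at each group mean. FAS lies above vehicle in 26 of 27 extract libraries, ZMAT3 below it in 26 and MDM4 in all 27.

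Counted together against vehicle, the members showed no shared direction. In Palmul-tang high 2 were higher and 3 lower, where 16.3% of all tested genes were higher and 15.6% lower. In Sibjeondaebo-tang high 2 were higher and 1 lower (19.3% and 16.7% of all genes), and in Samul-tang high 2 were higher and 0 lower (9.82% and 8.69%). The medium doses called 1 higher and 2 lower in Palmul-tang (11.6% and 10.8% of all genes), 1 higher and 3 lower in Sibjeondaebo-tang (15.3% and 14.8%), and 2 higher and 2 lower in Samul-tang (10.3% and 9.57%). The low doses called 1 higher and 2 lower in Palmul-tang (11.5% and 11.7% of all genes) and 1 higher and 1 lower in Sibjeondaebo-tang (11.5% and 11.5%). Samul-tang low called 0 by edgeR and DESeq2, with 1 at an unadjusted p under 0.05, where 6.47% of all genes were higher and 4.79% lower. The largest count in 1 direction, 3 of 10 lower, stood beside 15.6% and 14.8% of all genes. With only 10 members these counts cannot be placed near or away from the shares of all genes, and the difference was not tested. The members' median log2 fold change was -0.05 in Palmul-tang high, -0.01 in Sibjeondaebo-tang high and -0.03 in Samul-tang high, beside -0.01, -0.01 and -0.00397 over all tested genes. The 9 comparisons share the 3 vehicle libraries.

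Sibjeondaebo-tang and Palmul-tang differed in 2 members at the high dose, RRM2B and GDF15 as given above, where 1.75% of all genes were higher and 4.72% lower. At the medium and the low dose edgeR and DESeq2 called 0 members, with 2 and 0 at an unadjusted p under 0.05, and edgeR called 0.0311% and 0% of all genes. Of the 30 tests of a difference in dose response between formulas, 0 were called by edgeR and by DESeq2, and 4 had an unadjusted p under 0.05. The shares of all genes called by edgeR were 2% for Sibjeondaebo-tang minus Palmul-tang and 1.68% for Sibjeondaebo-tang minus Samul-tang.

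**Figure D4:**
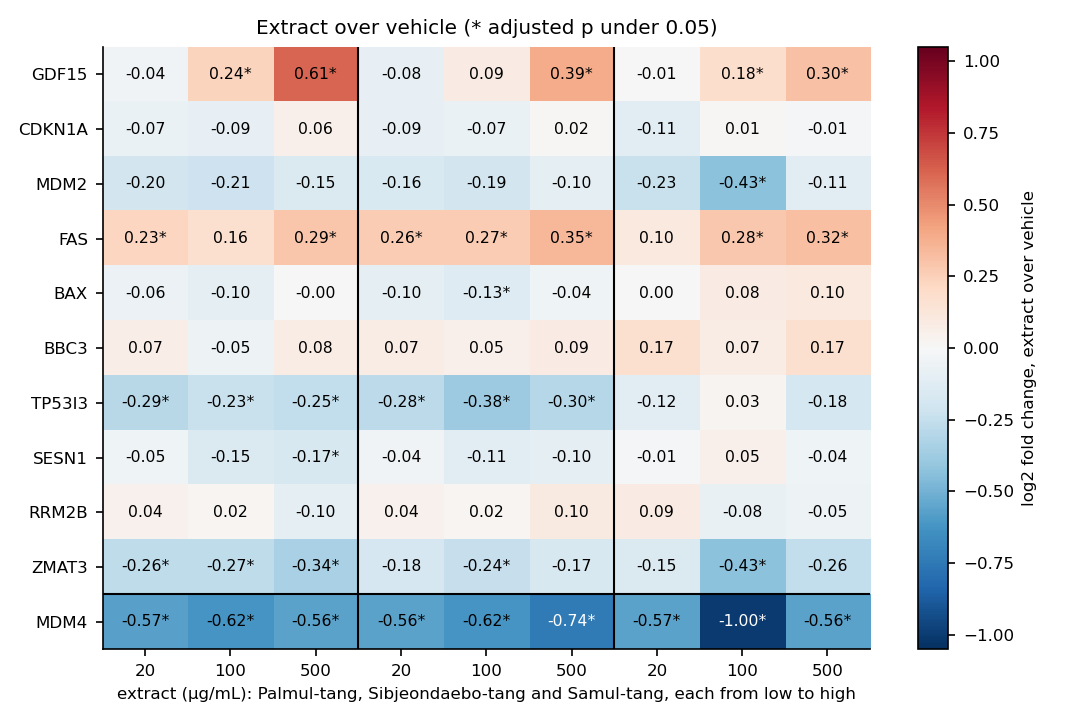
Log2 fold change over vehicle of the 10 members and, below the line, of MDM4 at 20, 100 and 500 µg/mL of Palmul-tang, Sibjeondaebo-tang and Samul-tang; colour follows the value and an asterisk marks an adjusted p under 0.05. GDF15 reddens with dose to 0.61, 0.39 and 0.30, FAS is above 0 and MDM2 and ZMAT3 are below 0 throughout, and MDM4 runs from -0.56 to -1.003, the last being -0.64 without Samul-tang medium replicate 2.

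MDM4, the inhibitor of p53 that works beside MDM2, was called lower at every dose of the 3 replicated formulas, from -0.56 ± 0.13 in Palmul-tang high (adjusted p = 0.00166) to -0.74 ± 0.13 in Sibjeondaebo-tang high (adjusted p = 0.000106) and -1.003 ± 0.15 in Samul-tang medium (adjusted p = 6.58e-05). Without Samul-tang medium replicate 2 the last was -0.64 (adjusted p = 0.00251). The call in Samul-tang high (-0.56) was lost without its replicate 2 (-0.38, adjusted p = 0.163), and that in Samul-tang low (-0.57) without its replicate 2 (-0.47, adjusted p = 0.133). Its levels were 13.4, 13.2 and 12.3 CPM in Palmul-tang high and 10.9, 12.8 and 10.7 CPM in Sibjeondaebo-tang high, against 18.1, 19.6 and 19.8 CPM in vehicle. All 27 extract libraries lay below all 3 vehicle libraries, and Samul-tang medium replicate 2 had the lowest value at 7.14 CPM. The share of all genes doing so is not given, and vehicle has a label prefix of its own. In single Sagunja-tang libraries, 34.2 to 35.9% of all genes lay below the vehicle range. High against low MDM4 gave 0.01 ± 0.13, -0.18 ± 0.13 and 0.00107 ± 0.16 in Palmul-tang, Sibjeondaebo-tang and Samul-tang, none of them called.

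Other p53 targets went both ways. Of 61 further targets chosen from general knowledge, 60 were tested. Here and in the lists below, at most 4 called genes of smallest adjusted p are named per high-dose comparison. A gene not named for a formula may therefore also have been called there. Against vehicle, 11 were higher and 16 lower in Palmul-tang high (16.3% and 15.6% of all genes), 11 higher and 13 lower in Sibjeondaebo-tang high (19.3% and 16.7%), and 5 higher and 7 lower in Samul-tang high (9.82% and 8.69%). ABHD4, a lipid-metabolising hydrolase, was higher in all 3 (0.56 ± 0.07, 0.55 ± 0.07 and 0.54 ± 0.07). AEN, a nuclease of apoptosis, was lower in Palmul-tang high (-0.37 ± 0.05) and Samul-tang high (-0.29 ± 0.06), as was the calcium channel gene ORAI3 (-0.42 ± 0.07 and -0.34 ± 0.07). The AEN call in Samul-tang high was lost without its replicate 2 (-0.21, adjusted p = 0.051). TRIAP1, an inhibitor of apoptosis, was lower in Palmul-tang high (-0.54 ± 0.07), SUSD6 was lower in Samul-tang high (-0.42 ± 0.08), and PIDD1, a death-domain protein, was lower in Sibjeondaebo-tang high (-0.45 ± 0.06). ASCC3, a helicase subunit, and PERP, a desmosome and death protein, were higher in Sibjeondaebo-tang high (0.34 ± 0.05 for each).

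Between high and low dose, 4 of the 60 further targets were higher and 7 lower in Palmul-tang (3.75% and 3.03% of all genes), 8 higher and 9 lower in Sibjeondaebo-tang (10.4% and 9.44%), and 2 higher and 0 lower in Samul-tang (0.709% and 0.715%). ABHD4 was again higher in each formula (0.34 ± 0.07, 0.34 ± 0.07 and 0.38 ± 0.08). PERP rose in Palmul-tang (0.28 ± 0.05) and Sibjeondaebo-tang (0.37 ± 0.05). LIF, a cytokine gene, rose in Palmul-tang (0.31 ± 0.06, adjusted p = 0.00217) and Samul-tang (0.30 ± 0.08, adjusted p = 0.0479). Both Samul-tang calls were lost when any of its 4 libraries was left out, with adjusted p of 0.0535 to 0.163 for ABHD4 and 0.114 to 0.389 for LIF, and that of LIF also with DESeq2 (0.123), with no filter (0.128), with the replicate block (0.0527) and in the fit of the compared groups alone (0.175). DRAM1, a lysosomal protein of autophagy, fell in Palmul-tang (-0.44 ± 0.05), while PIDD1 (-0.40 ± 0.06) and the transporter gene SLC12A4 (-0.36 ± 0.04) fell in Sibjeondaebo-tang. The median log2 fold change of the list was -0.03, 0.01 and -0.02, beside 0.00158, 0.02 and -0.00156 over all genes.

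**Figure D5:**
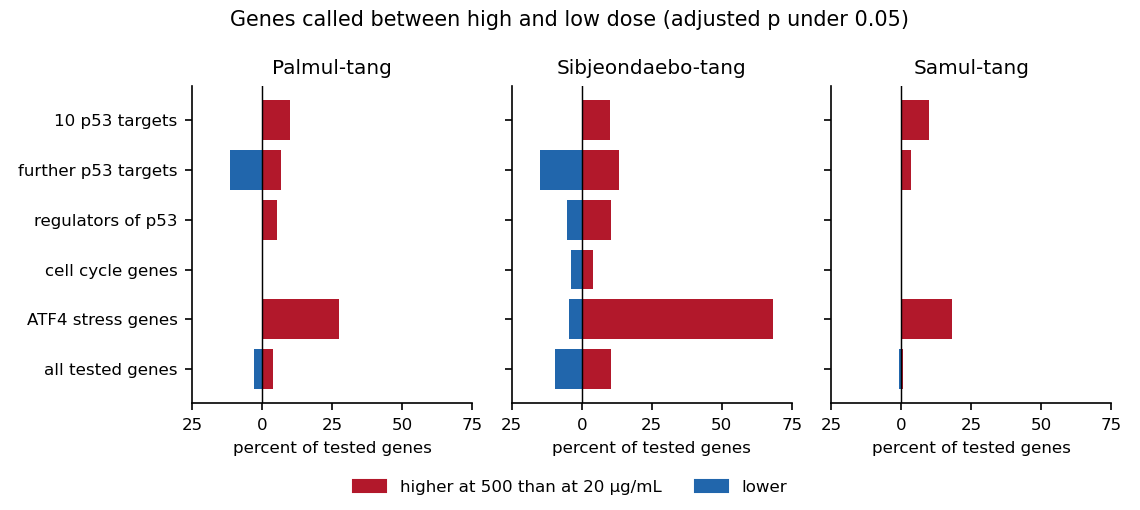
Share of the tested genes of each list, and of all tested genes, called higher (red, to the right) or lower (blue, to the left) at 500 than at 20 µg/mL, in percent, in each replicated formula. The 10 members have 1 call per formula (GDF15), the cell cycle list has 0, 2 and 0 of 25, and the ATF4 list has 6, 16 and 4 of 22.

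Of the 20 genes of the list of p53 regulators and relatives, 19 were tested. Against vehicle, 3 were higher and 3 lower in Palmul-tang high (16.3% and 15.6% of all genes), 7 higher and 4 lower in Sibjeondaebo-tang high (19.3% and 16.7%), and 1 higher and 3 lower in Samul-tang high (9.82% and 8.69%). TP73, a relative of p53, was lower in all 3 (-0.59 ± 0.11, -0.43 ± 0.11 and -0.49 ± 0.12). DYRK2, a kinase that phosphorylates p53, was lower in Palmul-tang high (-0.34 ± 0.07) and Samul-tang high (-0.25 ± 0.08). PML was higher in Palmul-tang high (0.25 ± 0.07) and Sibjeondaebo-tang high (0.28 ± 0.07), the acetyltransferase gene EP300 in Sibjeondaebo-tang high (0.24 ± 0.06), and the checkpoint kinase gene CHEK2 in Samul-tang high (0.23 ± 0.08, adjusted p = 0.0427). Without Samul-tang high replicate 2 the Samul-tang calls of TP73 (adjusted p = 0.082), DYRK2 (0.248) and CHEK2 (0.548) were lost, and without Palmul-tang high replicate 2 the Palmul-tang call of PML (0.131). The DYRK2 call was also lost without vehicle replicate 2 (0.06), vehicle replicate 3 (0.0655) or Samul-tang high replicate 3 (0.0636), and the CHEK2 call without vehicle replicate 1 or 2 (0.116 each) and with the replicate block (0.0586). High against low, where the shares of all genes are those given for the further targets, the damage kinase gene ATR was the 1 call in Palmul-tang (0.23 ± 0.07, adjusted p = 0.0315). In Sibjeondaebo-tang the deubiquitinase gene USP7 (0.14 ± 0.04) and the kinase gene HIPK2 (0.32 ± 0.11) were higher and ATM (-0.26 ± 0.07) was lower. Leaving out single libraries ended each of these calls in some case: ATR without replicate 1 or 2 of either dose (adjusted p = 0.0519 to 0.177), ATM without low replicate 2 (0.0502) or high replicate 3 (0.0629), USP7 without any library but low replicate 3 (0.0625 to 0.166), and HIPK2 without any of the 6 (0.0764 to 0.135). Samul-tang had 0 calls by edgeR and DESeq2, with 0 at an unadjusted p under 0.05.

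The cell cycle list holds genes that p21 represses through the DREAM complex. Its counts were not tested against the shares of all genes. Of 25 tested, 0 were called high against low in Palmul-tang and in Samul-tang by edgeR and DESeq2, with 3 and 1 at an unadjusted p under 0.05. Of all genes, 3.75% were higher and 3.03% lower in Palmul-tang, 10.4% and 9.44% in Sibjeondaebo-tang, and 0.709% and 0.715% in Samul-tang. Sibjeondaebo-tang had 1 higher, the mitotic regulator FOXM1 (0.14 ± 0.05, adjusted p = 0.0423), and 1 lower, the kinetochore motor CENPE (-0.50 ± 0.06, adjusted p = 9.95e-08). The FOXM1 call was lost with DESeq2 (0.0764), median-ratio factors (0.0912), no filter (0.267) and without any library but low replicate 3 (0.0666 to 0.327). Against vehicle they divided between directions, with 6 higher and 8 lower in Palmul-tang high (16.3% and 15.6% of all genes), 9 higher and 7 lower in Sibjeondaebo-tang high (19.3% and 16.7%), and 3 of each in Samul-tang high (9.82% and 8.69%). The phosphatase gene CDC25A (-0.42 ± 0.06, -0.33 ± 0.06 and -0.37 ± 0.07) and the replication helicase gene MCM5 (-0.28 ± 0.05, -0.21 ± 0.05 and -0.23 ± 0.05) were lower in all 3, though MCM5 in Sibjeondaebo-tang high was not called with the GC and length offset (-0.10, adjusted p = 0.0512). CDK1 was lower in Palmul-tang high (-0.30 ± 0.06). The checkpoint kinase gene BUB1 was higher in Palmul-tang high (0.29 ± 0.06) and Sibjeondaebo-tang high (0.29 ± 0.06), FOXM1 in Sibjeondaebo-tang high (0.30 ± 0.05), and CENPE (0.29 ± 0.06) and BUB1B (0.21 ± 0.05) in Samul-tang high.

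Of 24 genes of the ATF4 branch, 22 were tested. High against low, 6 were higher and 0 lower in Palmul-tang, where 3.75% of all genes were higher and 3.03% lower. In Sibjeondaebo-tang 15 were higher and 1 lower (10.4% and 9.44% of all genes), and in Samul-tang 4 were higher and 0 lower (0.709% and 0.715%). ASNS, which makes asparagine, rose by 0.56 ± 0.05 in Palmul-tang, 0.79 ± 0.05 in Sibjeondaebo-tang and 0.52 ± 0.06 in Samul-tang. The cystine carrier gene SLC7A11 rose by 1.00 ± 0.10, 0.90 ± 0.10 and 0.90 ± 0.12, and STC2, a secreted glycoprotein gene, by 0.35 ± 0.05, 0.45 ± 0.05 and 0.48 ± 0.06, in the same order. MTHFD2, a mitochondrial folate enzyme gene, rose in Palmul-tang (0.34 ± 0.05) and Sibjeondaebo-tang (0.38 ± 0.05), and DDIT4, an inhibitor of mTORC1, in Samul-tang (0.43 ± 0.11, adjusted p = 0.0403). The DDIT4 call was lost without Samul-tang high replicate 2 (0.49), low replicate 2 (0.197) or low replicate 3 (0.338). The list's median was 0.14, 0.25 and 0.17, against 0.00158, 0.02 and -0.00156 over all genes. Against vehicle, 12 were higher and 3 lower in Palmul-tang high (16.3% and 15.6% of all genes), 12 higher and 2 lower in Sibjeondaebo-tang high (19.3% and 16.7%), and 10 higher and 2 lower in Samul-tang high (9.82% and 8.69%). The transcription factor gene CEBPB was among the higher ones (0.97 ± 0.09, 1.23 ± 0.09 and 0.95 ± 0.09). SESN2 stands in both the p53 and the ATF4 list.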

How the data were processed

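RNA from 30 libraries of HepG2 cells in 13 groups was sequenced with a stranded paired-end kit, per the labels' protocols. The authors deposited expected counts per gene. Per the submitters' processing notes, RSEM 1.3.3, STAR 2.7.3a, FastQC 0.11.9 and Trim Galore 0.6.5 were used. The annotation release and the strand setting of the counting are not given in the sources used here. Of the deposited values, 8.56% were not whole, and 240 columns were not read because they belong to no sample used here. Names came from a table that matched 56558 rows (41209 with a symbol) and overlaps from GENCODE 29.

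Counts were rounded, kept by filterByExpr (minimum count 10, minimum total 15) and scaled with TMM factors. In edgeR 4.0.16 (R 4.3.3), a robust quasi-likelihood model of all 10 groups with 2 or 3 libraries left 17 residual degrees of freedom, with a biological coefficient of variation of 5.47%. Its 18 comparisons were two-sided and adjusted over 16083 genes. A standard error is the size of the log2 fold change over the root of its F statistic. Sagunja-tang is given as log2 ratios of CPM (prior count 2). Within a group no library was a copy of another, since all 24 replicate pairs spread by at least 1.69 times counting noise. Libraries of different groups were not compared in this way, and the Sagunja-tang libraries have no replicate pair. The scripts were tested on simulated data, with 50 randomly drawn genes changed at each fold. Of the 1.2-fold changes 30 to 40% were called, and of the 1.5-fold changes 60 to 62%. A change of such size can therefore go uncalled.

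All 10 members and MDM4 are named, with the 3 genes most like CDKN1A or MDM2 (mean log2 CPM of 2 or more) and, per further list and high-dose comparison, at most 4 called genes of smallest adjusted p. A gene that the rule also takes is not reported here. The members and lists were chosen with earlier results of these data known. Alternatives were DESeq2 1.42.0, median-ratio factors, no filter, fits restricted to the groups compared, a replicate block, leaving out single libraries, a threshold of 0.01, a prior count of 0.5 and, added after seeing the data, an offset for GC content and gene length.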

Additional observations from a re-analysis of the deposited data

Results flagged for a closer look

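BAX lay on opposite sides of the vehicle range in the libraries of a pair of medium doses. It held 99.2 and 99.5 CPM in Samul-tang medium, above all vehicle libraries (95.2, 94.7 and 91.6 CPM), and 91.0, 81.2 and 84.3 CPM in Sibjeondaebo-tang medium, below them all. The log2 fold changes from vehicle were 0.08 ± 0.06 (adjusted p = 0.321) in Samul-tang medium and -0.13 ± 0.05 (adjusted p = 0.0445) in Sibjeondaebo-tang medium, a gap of 0.216, and the difference was not tested. The Samul-tang medium value did not pass, and the Sibjeondaebo-tang medium call was lost with DESeq2 (0.0543) and with the GC and length offset (-0.05, adjusted p = 0.509). The formulas carry different label prefixes. Of 120 pairs of member effects looked at across formulas, 1 showed this. No group held the 4 libraries needed to look for outlying samples.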

How the results depend on the processing

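No member changed direction among the values that passed a threshold. Of 2430 alternative values for single members, 2332 kept their side of the threshold, 69 lost the call and 29 gained it. The number of members called moved by more than 1.5 times as follows. At a threshold of 0.01 it was 1 in Palmul-tang medium and low, 2 in Sibjeondaebo-tang medium, 0 in Samul-tang high against low and 0 in Sibjeondaebo-tang high against Palmul-tang high. Fits of the compared groups alone called 5 in Sibjeondaebo-tang low, 4 in Samul-tang high, 0 in Samul-tang medium, 1 in Samul-tang low and 1 in Sibjeondaebo-tang high against Palmul-tang high. With no filter, Samul-tang low and Sibjeondaebo-tang high against Palmul-tang high gave 1 each, and median-ratio factors gave 1 in the last. The GC and length offset gave 2 in Sibjeondaebo-tang high against low. Leaving out each replicate gave counts of 3 to 5 in Palmul-tang high, 1 to 3 in Palmul-tang medium and low, 2 to 3 in Sibjeondaebo-tang medium, 0 to 4 in Samul-tang medium, 1 to 2 in Palmul-tang high against low, 0 in Samul-tang high against low and 0 to 1 in Sibjeondaebo-tang high against Palmul-tang high. The lowest counts came without Palmul-tang high replicate 2, without vehicle replicate 1 or Palmul-tang medium replicate 2, without vehicle replicate 3 (Palmul-tang low), without Samul-tang medium replicate 2 and without Sibjeondaebo-tang high replicate 3, and the 2 in Palmul-tang high against low came without Palmul-tang low replicate 1. In Sibjeondaebo-tang medium, the count was 2 without vehicle replicate 1 or 3 or without its own replicate 2 or 3. The causes were not tested. Where this leaves 1 Samul-tang library, that library is assumed to vary like the other groups. Replicate numbers did not pair the libraries, since deviations of same-numbered libraries correlated at -0.17 to 0.109. The replicate block left the count at 5 in Palmul-tang high and moved it to 3 in Samul-tang high by adding ZMAT3 (-0.28, adjusted p = 0.00956), and it changed no other call of a member. GDF15 at the high dose of Palmul-tang and Sibjeondaebo-tang, against vehicle and against low, stayed called under every alternative run, with adjusted p up to 0.000185. BBC3 had the lowest counts of the members, 103 to 220 per library.

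Over all alternatives, high against low, the calls among further p53 targets numbered 6 to 11 in Palmul-tang (11 as reported), 12 to 23 in Sibjeondaebo-tang (17) and 0 to 2 in Samul-tang (2, and 0 when any of its 4 libraries was left out). Against vehicle they were 5 to 18 in Samul-tang high (12 as reported, 5 without its replicate 2 and 7 without its replicate 3). Among p53 regulators and relatives, high against low gave 0 to 2 in Palmul-tang (1) and 0 to 5 in Sibjeondaebo-tang (3), and the high doses against vehicle 3 to 8 in Palmul-tang (6, and 3 without its replicate 2), 6 to 14 in Sibjeondaebo-tang (11, and 7 without vehicle replicate 1) and 0 to 6 in Samul-tang (4, with 0 without its replicate 2 and 2 without vehicle replicate 2). Cell cycle genes gave 1 to 4 in Sibjeondaebo-tang high against low (2), 0 to 1 in Palmul-tang high against low (0), 9 to 14 in Palmul-tang high against vehicle (14) and 4 to 10 in Samul-tang high against vehicle (6). The ATF4 list stayed within 1.5 times its reported counts, with 4 to 8, 12 to 19 and 3 to 6 calls high against low in Palmul-tang, Sibjeondaebo-tang and Samul-tang.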
